A study of Mus musculus with 3 samples.

Results

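The genes described here are 38 genes of cholesterol synthesis and of fatty acid and triglyceride synthesis. They were chosen by name as a pathway, with earlier results of these data known. Of these, 21 are sterol genes and 17 are fatty acid genes, and 33 (17 sterol, 16 fatty acid) had a value on all 3 arrays, out of 10179 named genes with such values. No named row was found for Acat2, Hmgcs1 and Fdps, and the row of Pmvk was blank on every array. Pnpla3, which the annotation calls Adpn, had a value of 1.60 on the array of treated wild-type liver and was blank on the other two.

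Whole liver of female C57BL/6 mice was measured on 3 arrays with 2 channels each. The samples were liver of TMX-null mice 24 h after LPS (3 ng) and D-galactosamine (10 mg) were given together into the peritoneum (LPS/GalN), liver of untreated TMX-null mice, liver of wild-type mice treated in the same way, and liver of untreated wild-type mice. LPS, or lipopolysaccharide, comes from the outer membrane of bacteria, D-galactosamine is an amino sugar that sensitises hepatocytes to it, and the pair is a standard model of acute liver injury. Liver RNA of untreated wild-type mice was the other channel of every array, always in Cy5 with the sample in Cy3. The labels do not give the age of the mice, how the TMX allele was made, or whether a channel held 1 mouse or a pool. Each sample group had 1 array, so no difference below has a replicate check and no p-value is given.

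All values are log2 ratios of the sample over untreated wild-type liver, after each array was centred on its median over the 10179 genes, and a gene is called 2-fold higher or lower at a log2 value of 1 or more in size. The deposited table states neither the numerator nor the base of the logarithm. The direction is read as likely from Tmx1, the deleted gene, which stood at −3.88 in treated TMX-null liver, −2.96 in untreated TMX-null liver and 0.59 in treated wild-type liver. If the table ran the other way, every direction below would turn, and with a natural logarithm every log2 value would be multiplied by 1.44. The only measure of error is the SD of a single probe, from 81 genes with 2 probes, which was 0.76 in treated TMX-null liver and 0.42 in each of the other samples. It leaves out the spread between mice. Over the 10179 genes, the SD of the values was 1.04 in treated TMX-null liver, 0.40 in untreated TMX-null liver and 0.48 in treated wild-type liver. More genes passed the 2-fold line on the first of these arrays. Equal spreads, below, means that arrays were scaled until the median distance of genes from the array's centre was the same.

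Cholesterol is built in the cytosol and endoplasmic reticulum from acetyl-CoA through mevalonate, isoprenoid diphosphates, squalene and lanosterol. The genes of this pathway are known targets of the transcription factor SREBP2, which INSIG proteins hold back in the endoplasmic reticulum when sterols are plentiful. Fatty acid synthesis also starts from acetyl-CoA, and in liver its genes are known targets of SREBP1c, which responds to insulin, and of ChREBP, which responds to carbohydrate.

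In treated TMX-null liver both branches stood low together. The 17 sterol genes had a median of −2.16 and the 16 fatty acid genes a median of −2.14, against 0.00 for all genes. At least 2-fold lower were 14 of the 17 sterol genes and 13 of the 16 fatty acid genes, beside 13.2% of all genes, and none of the 33 was 2-fold higher, beside 13.6% of all genes. In 30 of the 33 genes this array gave the lowest of the 3 values, beside 41.4% of all genes. The exceptions were Lss, Srebf2 and Gpam.

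**Figure D1:**
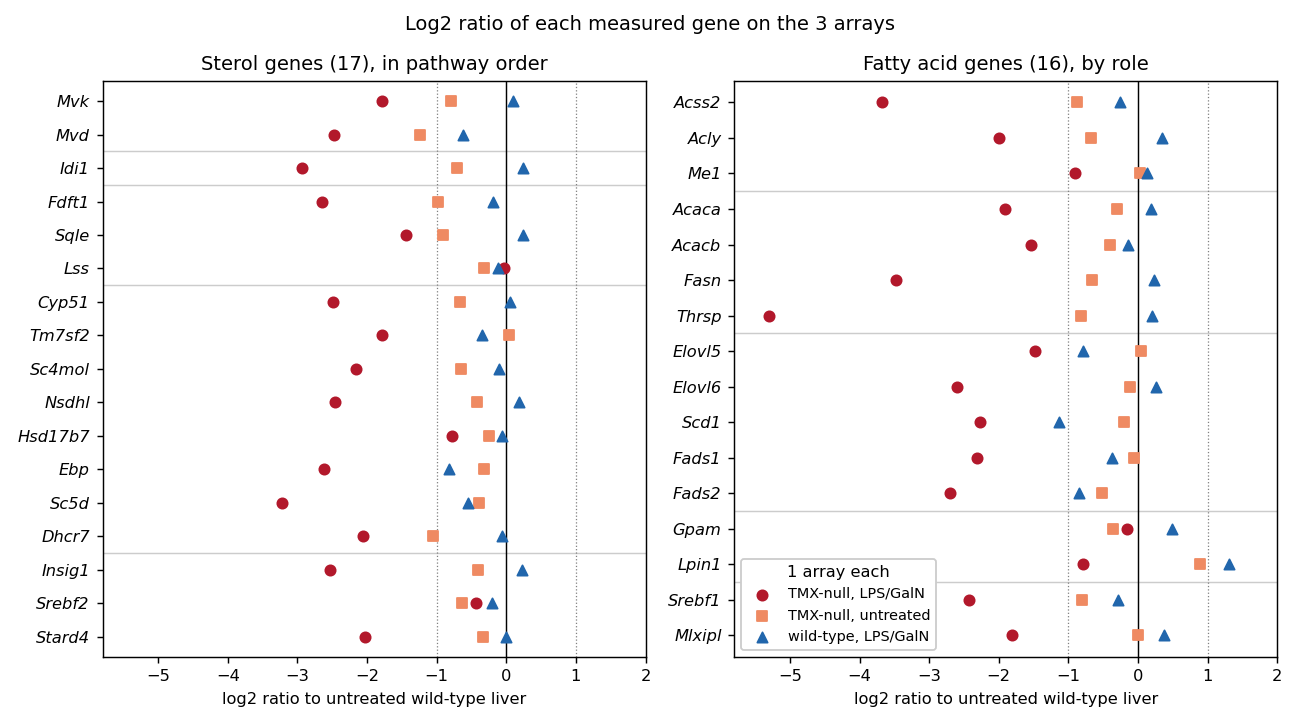
Log2 ratio to untreated wild-type liver (horizontal axes) of the 17 sterol genes in pathway order and the 16 fatty acid genes by role, 1 symbol per array and grey lines between the steps. Circles of treated TMX-null liver lie left of the other symbols in 30 of the 33 genes, while triangles of treated wild-type liver lie mostly near 0.

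Hepatocyte markers stood low on the same array. The 14 of 16 listed hepatocyte markers with values had a median of −1.83 and ran between −4.47 and −0.14 in treated TMX-null liver. Of these 14, 10 were at least 2-fold lower there, beside 13.2% of all genes. On that array 12 of the 14 had their lowest of the 3 values, beside 41.4% of all genes. Their median was −0.32 in untreated TMX-null liver, with a range between −1.42 and 0.26, and −0.32 in treated wild-type liver, with a range between −2.17 and 0.68. Of the 14, 5 were at least 2-fold lower in treated wild-type and 1 in untreated TMX-null liver, beside 1.75% and 0.835% of all genes. Albumin (Alb) stood at −1.84 in treated TMX-null liver, −0.73 in untreated TMX-null liver and −1.06 in treated wild-type liver, while Hnf4a, a transcription factor of hepatocytes, stood at −0.28, 0.04 and −0.04 on the same arrays in that order. Macrophage markers, 13 of 13 measured, had medians of 1.45 in treated TMX-null liver, 0.80 in untreated TMX-null liver and 1.20 in treated wild-type liver. Of the other lists, 5 of 8 neutrophil markers had a median of 2.66 in treated TMX-null liver, between −2.50 for Ly6g and 4.45 for S100a9, and 7 of 10 stellate cell markers a median of 1.23, between 0.76 and 3.31. With each array centred on the hepatocyte markers in place of all genes, the medians in treated TMX-null liver were −0.33 for the sterol genes and −0.31 for the fatty acid genes, with 2 and 3 genes at least 2-fold lower. The share of all genes at least 2-fold lower was then 1.03%. By that centring 6 sterol genes (Mvk, Sqle, Lss, Tm7sf2, Hsd17b7 and Srebf2) and 6 fatty acid genes (Me1, Acacb, Elovl5, Gpam, Lpin1 and Mlxipl) stood above 0, of which Lss, Hsd17b7, Srebf2, Gpam and Lpin1 were at least 2-fold higher. In bulk tissue, fewer cells of a type and less RNA per cell cannot be told apart, and the part of cell composition in the results below was not tested.

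The stretches of 250 bases before the transcription start are shown for 6 genes. Mvd was the lowest sterol gene in untreated TMX-null liver, Idi1 the lowest sterol gene and Thrsp and Fasn the lowest fatty acid genes between the treated genotypes. Lss is a sterol gene that stood near 0, and Mvk had the most CCAAT boxes. They were chosen after the values were seen, come from RefSeq on mouse build GRCm38.p6, and run 5′ to 3′ on the gene's strand. Capitals mark CCAAT, the box bound by NF-Y, and GGGCGG, the GC box bound by SP1, on either strand, so that ATTGG and CCGCCC are the same motifs on the opposite strand. Mvk lies on the plus strand, and its window is chr5:114444019-114444268, with 5 CCAAT and 2 GC boxes. Mvd is on the minus strand, with 2 CCAAT boxes and 1 GC box in chr8:122443423-122443672. The window of Idi1, plus strand, is chr13:8885356-8885605 and has 2 CCAAT boxes and 1 GC box.
Mvk: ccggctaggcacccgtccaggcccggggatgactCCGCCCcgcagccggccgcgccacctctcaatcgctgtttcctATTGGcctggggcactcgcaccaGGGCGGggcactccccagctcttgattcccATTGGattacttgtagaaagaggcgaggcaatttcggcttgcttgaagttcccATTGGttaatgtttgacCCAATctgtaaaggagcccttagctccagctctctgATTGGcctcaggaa
Mvd: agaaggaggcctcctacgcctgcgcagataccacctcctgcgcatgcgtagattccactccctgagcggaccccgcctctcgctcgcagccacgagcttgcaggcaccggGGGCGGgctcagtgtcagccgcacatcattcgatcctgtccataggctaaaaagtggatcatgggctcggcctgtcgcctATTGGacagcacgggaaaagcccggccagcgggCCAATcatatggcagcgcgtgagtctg
Idi1: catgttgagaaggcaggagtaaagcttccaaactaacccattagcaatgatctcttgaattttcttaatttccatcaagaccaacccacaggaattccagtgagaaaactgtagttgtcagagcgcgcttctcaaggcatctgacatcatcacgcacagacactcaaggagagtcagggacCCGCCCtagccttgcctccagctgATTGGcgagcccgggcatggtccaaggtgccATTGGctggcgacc
Lss is on the plus strand at chr10:76531355-76531604, with 1 CCAAT box and 2 GC boxes. Fasn is on the minus strand at chr11:120824548-120824797, with 3 CCAAT boxes, a pair of which overlap on opposite strands. Thrsp, on the minus strand at chr7:97417551-97417800, has 2 CCAAT boxes and no GC box.
Lss: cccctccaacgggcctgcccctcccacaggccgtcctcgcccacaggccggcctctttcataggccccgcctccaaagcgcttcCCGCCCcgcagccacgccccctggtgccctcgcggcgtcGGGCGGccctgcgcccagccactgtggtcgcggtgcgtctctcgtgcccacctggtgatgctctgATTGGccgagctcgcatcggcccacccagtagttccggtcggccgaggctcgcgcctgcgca
Fasn: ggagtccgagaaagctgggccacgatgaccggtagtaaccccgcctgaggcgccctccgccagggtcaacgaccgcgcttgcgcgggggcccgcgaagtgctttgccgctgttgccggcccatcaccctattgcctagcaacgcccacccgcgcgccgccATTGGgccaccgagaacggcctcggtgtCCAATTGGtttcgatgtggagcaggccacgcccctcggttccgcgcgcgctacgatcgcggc
Thrsp: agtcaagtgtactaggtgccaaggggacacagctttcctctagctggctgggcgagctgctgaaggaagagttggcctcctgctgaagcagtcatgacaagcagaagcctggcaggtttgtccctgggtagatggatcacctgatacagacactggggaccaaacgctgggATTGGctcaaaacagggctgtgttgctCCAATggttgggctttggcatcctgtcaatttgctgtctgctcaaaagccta

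Of the 33 measured genes, 28 had a window, some with more than 1 start. Fdft1, Sqle, Stard4, Scd1 and Fads1 had none. CCAAT was present in 14 of 16 windows (87.5%) of sterol genes and in 10 of 19 (52.6%) of fatty acid genes, against 34.7% of the 10484 windows of genes measured on all 3 arrays. GGGCGG was in 15 of 16 sterol windows (93.8%) and 8 of 19 fatty acid windows (42.1%), against 53.8%. CACGTG, the E-box, was in 4 sterol windows and 2 fatty acid windows, against 7.98%. TCACNCCAC, a sterol regulatory element written with 1 free base, was in none of the 16 sterol windows and in 1 fatty acid window (5.26%), that of Mlxipl, against 1.07%. Hmgcs1, a sterol gene without a value here, carried it 137 bases before its start. All motifs were searched on both strands, and no match overlapped one of another motif. A match is a description of these letters and not a site. Lss, whose log2 ratios stood near 0, carries both CCAAT and GC boxes.

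The mevalonate and isoprenoid steps were represented by 3 measured genes. Mvk, which phosphorylates mevalonate, stood at −1.79 in treated TMX-null liver, −0.79 in untreated TMX-null liver and 0.09 in treated wild-type liver. Mvd, which decarboxylates the product of the next phosphorylation, stood at −2.48, −1.24 and −0.62 on the same arrays in that order. Idi1, the isomerase that makes dimethylallyl diphosphate, stood at −2.94 in treated TMX-null liver, −0.71 in untreated TMX-null liver and 0.24 in treated wild-type liver. The order of the arrays was thus the same in all 3 genes, and Idi1 had the widest distance between the treated genotypes, 9.03-fold lower in treated TMX-null than in treated wild-type liver. Mvd was the 30th lowest of the 10179 genes in untreated TMX-null liver.

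Among the squalene and lanosterol steps the genes parted. Fdft1, squalene synthase, stood at −2.64 in treated TMX-null liver, −0.98 in untreated TMX-null liver and −0.20 in treated wild-type liver. Sqle, squalene epoxidase, stood at −1.44, −0.90 and 0.24 on the same arrays in that order. Lss, which cyclises squalene epoxide to lanosterol, stood at −0.04 in treated TMX-null liver, −0.33 in untreated TMX-null liver and −0.11 in treated wild-type liver. All 3 values of Lss lay within the SD of a single probe of 0, whereas its neighbours on both sides in the pathway were at least 2-fold lower in treated TMX-null liver.

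After lanosterol, 7 of 8 genes were at least 2-fold lower in treated TMX-null liver. Sc5d, a sterol desaturase, was the lowest sterol gene there at −3.22 (9.33-fold), with −0.39 in untreated TMX-null liver and −0.55 in treated wild-type liver. Cyp51, which removes a methyl group from lanosterol, stood at −2.50 in treated TMX-null liver, −0.67 in untreated TMX-null liver and 0.06 in treated wild-type liver. Dhcr7, the reductase of the last step, stood at −2.06, −1.05 and −0.06 on the same arrays in that order. Hsd17b7, a sterol ketone reductase, was the exception, with −0.78, −0.25 and −0.06.

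The other 4 genes of these steps lay between −2.62 and −1.79 in treated TMX-null liver. Ebp, the sterol isomerase, stood at −2.62 in treated TMX-null liver, −0.32 in untreated TMX-null liver and −0.82 in treated wild-type liver. Nsdhl, a sterol dehydrogenase, stood at −2.47, −0.42 and 0.18 on the same arrays in that order. Ebp was thus among the few sterol genes with a low value in treated wild-type liver, and Nsdhl was not. Sc4mol (now Msmo1), a sterol methyl oxidase, stood at −2.16 in treated TMX-null liver, −0.64 in untreated TMX-null liver and −0.10 in treated wild-type liver. Tm7sf2, a sterol reductase, stood at −1.79, 0.03 and −0.35 in the same order, and was the only sterol gene not below 0 in untreated TMX-null liver.

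The regulators and the transport gene stood apart from each other. Insig1, which retains the SREBP escort SCAP in the endoplasmic reticulum and is itself a sterol-regulated gene, stood at −2.53 in treated TMX-null liver, −0.40 in untreated TMX-null liver and 0.22 in treated wild-type liver. Stard4, a cholesterol transfer protein, stood at −2.03, −0.33 and −0.01 on the same arrays in that order. Srebf2, the gene of SREBP2, stood at −0.44 in treated TMX-null liver, −0.63 in untreated TMX-null liver and −0.21 in treated wild-type liver. Srebf2 RNA was therefore lowest in untreated TMX-null liver, by less than the SD of a single probe.

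Of the genes that supply acetyl-CoA and NADPH for fatty acids, Acss2 and Acly were low and Me1 was less so. Acss2, which makes acetyl-CoA from acetate, stood at −3.67 (12.8-fold) in treated TMX-null liver, −0.88 in untreated TMX-null liver and −0.25 in treated wild-type liver. Acly, ATP citrate lyase, stood at −2.00, −0.68 and 0.35 on the same arrays in that order. Me1 (Mod1 in the annotation), the malic enzyme that yields NADPH, stood at −0.91 in treated TMX-null liver, 0.03 in untreated TMX-null liver and 0.13 in treated wild-type liver, short of 2-fold.

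The chain synthesis genes held the extreme values. Thrsp, a lipogenic protein known as Spot14, stood at −5.29 in treated TMX-null liver, −0.83 in untreated TMX-null liver and 0.20 in treated wild-type liver. That made it the 3rd lowest of 10179 genes against untreated wild-type liver (39.2-fold) and the lowest of all against treated wild-type liver (45.0-fold). Fasn, fatty acid synthase, stood at −3.48, −0.66 and 0.22 on the same arrays in that order. The acetyl-CoA carboxylases were less far from 0, with −1.91 for Acaca and −1.54 for Acacb in treated TMX-null liver, −0.30 and −0.41 in untreated TMX-null liver, and 0.19 and −0.14 in treated wild-type liver.

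Elongases and desaturases differed from the preceding steps in treated wild-type liver. Their median there was −0.79, against 0.19 for the 4 chain synthesis genes on the same array. Scd1, stearoyl-CoA desaturase, stood at −2.28 in treated TMX-null liver, −0.21 in untreated TMX-null liver and −1.13 (2.19-fold) in treated wild-type liver. Fads2 and Elovl5, which act on polyunsaturated fatty acids, stood at −2.70 and −1.48 in treated TMX-null liver, −0.52 and 0.05 in untreated TMX-null liver, and −0.85 and −0.79 in treated wild-type liver. Scd1, Fads2 and Elovl5 were thus low in both treated livers. Elovl6, which elongates palmitate, stood at −2.60 in treated TMX-null liver, −0.12 in untreated TMX-null liver and 0.26 in treated wild-type liver, and Fads1, the other polyunsaturated desaturase, at −2.32, −0.06 and −0.37 in that order.

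The glycerolipid genes had another pattern. Lpin1, a phosphatidate phosphatase that also acts as a coactivator in liver, stood at −0.78 in treated TMX-null liver, 0.88 in untreated TMX-null liver and 1.30 in treated wild-type liver. It was the only one of the 33 genes at least 2-fold higher on any array, and the treated genotypes were 4.25-fold apart. Gpam, the mitochondrial acyltransferase that starts glycerolipid synthesis, stood at −0.16 in treated TMX-null liver, −0.36 in untreated TMX-null liver and 0.49 in treated wild-type liver, and none of these reached 2-fold.

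The regulators of the fatty acid branch stood low. Srebf1, the gene of SREBP1c, stood at −2.43 in treated TMX-null liver, −0.80 in untreated TMX-null liver and −0.28 in treated wild-type liver. Mlxipl, the gene of ChREBP, stood at −1.81, 0.00 and 0.38 on the same arrays in that order. Srebf1 was thus 5.38-fold lower in treated TMX-null liver, against 1.35-fold for Srebf2, the regulator named for the sterol branch.

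Untreated TMX-null liver was set against untreated wild-type liver on 1 array, so genotype cannot be told apart from differences between mice or dyes. The sterol genes had a median of −0.63 and 16 of 17 lay below 0, while the fatty acid genes had a median of −0.33 and 12 of 16 lay below 0. At least 2-fold lower were 2 genes, Mvd and Dhcr7, beside 0.835% of all genes, and none was 2-fold higher, beside 1.78%. With equal spreads 8 sterol and 5 fatty acid genes were at least 2-fold lower, beside 4.25% of all genes. With hepatocyte centring none was, beside 0.216%, and Lpin1 was 2-fold higher in both settings. Hepatocyte centring gave medians of −0.31 for the sterol genes and −0.0059 for the fatty acid genes. By that centring 3 of 17 sterol and 8 of 16 fatty acid genes stood above 0. Lower by more than the SD of a single probe (0.42) were 9 of 17 sterol genes and 6 of 16 fatty acid genes, beside 11.8% of all genes. Of the hepatocyte markers, 6 of 14 met the same rule. The hepatocyte marker median on this array was −0.32, and 14 of 17 sterol genes and 8 of 16 fatty acid genes lay below it.

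By step of the sterol branch, the medians in untreated TMX-null liver were −1.02 for the 2 mevalonate genes, −0.90 for the 3 squalene and lanosterol genes and −0.40 for the 8 genes after lanosterol. Idi1, the isoprenoid gene between the first of these, stood at −0.71, and Dhcr7, of the last step, at −1.05, so the values did not follow the order of the pathway. In the fatty acid branch they were −0.68 for acetyl-CoA and NADPH supply, −0.53 for chain synthesis and −0.12 for elongation and desaturation. In treated TMX-null liver the medians were −2.14, −1.44 and −2.31 for the same sterol steps and −2.00, −2.70 and −2.32 for the same fatty acid steps. For the 3 sterol regulator and transport genes the medians were −0.40 in untreated and −2.03 in treated TMX-null liver. The 2 measured glycerolipid genes had 0.26 and −0.47 in that order, and the 2 fatty acid regulators −0.40 and −2.12.

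In treated wild-type liver the same genes stood near 0. The median was −0.06 for the sterol genes and 0.16 for the fatty acid genes. Scd1 was the only gene at least 2-fold lower, beside 1.75% of all genes, and Lpin1 the only one at least 2-fold higher, beside 2.8%. Further from 0 than the SD of a single probe lay 3 of 17 sterol genes (Ebp, Mvd and Sc5d, all low) and 5 of 16 fatty acid genes, beside 31.8% of all genes.

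The treated livers of the 2 genotypes were set against each other by subtracting the wild-type array from the TMX-null array. This cancels the untreated wild-type channel if it held the same RNA on both arrays. Sterol genes had a median difference of −2.00 and fatty acid genes one of −2.10. At least 2-fold lower were 14 of the 17 sterol and 14 of the 16 fatty acid genes, beside 10.6% of all genes. None was 2-fold higher, beside 9.64%. At least 4-fold lower were 8 sterol and 9 fatty acid genes, beside 2.23% of all genes. The hepatocyte markers had a median difference of −0.95, with a range between −2.93 and 0.03, and 28 of the 33 genes lay below that median, beside 11.9% of all genes. With both arrays centred on the hepatocyte markers, the medians were −0.48 for the sterol genes and −0.58 for the fatty acid genes. At least 2-fold lower were then 5 sterol and 4 fatty acid genes, beside 0.992% of all genes. The difference then turned positive for Tm7sf2, Hsd17b7, Srebf2, Me1, Acacb, Elovl5, Scd1 and Gpam, and Lss and Srebf2 were at least 2-fold higher.

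**Figure D2:**
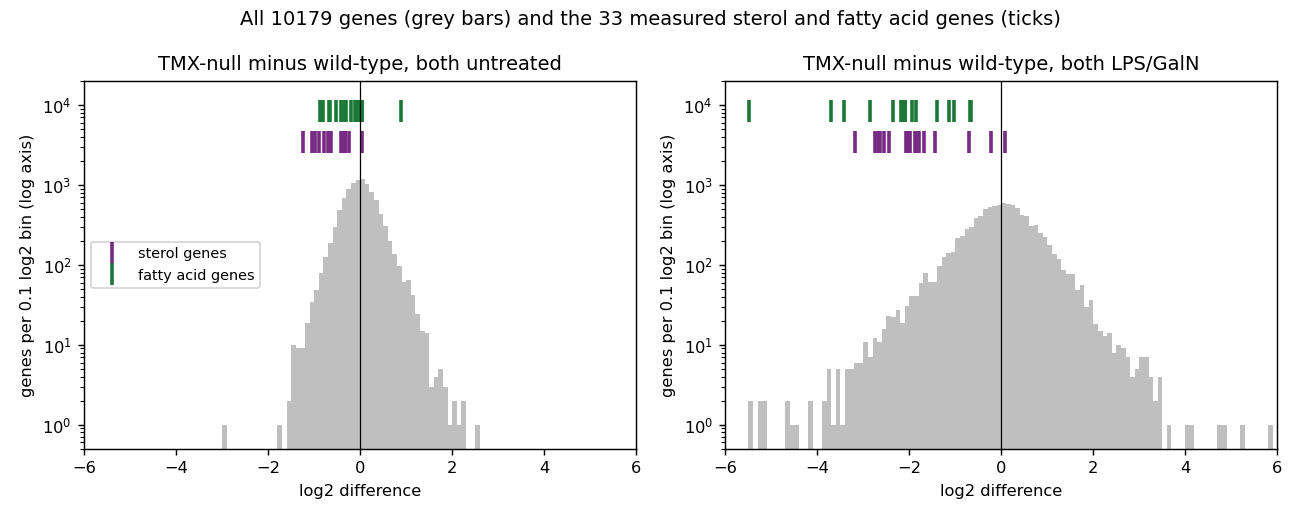
Distribution of the log2 difference over 10179 genes (grey, genes per bin on a log axis) for untreated and for treated TMX-null minus wild-type liver, with a tick for each of the 33 sterol and fatty acid genes. In treated liver, 28 of the 33 ticks lie at or below −1, and in untreated liver 2 do.

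The widest differences between the treated genotypes after Thrsp were in Fasn (−3.70), Acss2 (−3.42) and Idi1 (−3.17). They ranked 19th, 26th and 39th lowest of 10179 genes. At the other end, Lss stood at 0.08, Srebf2 at −0.23 and Gpam at −0.65. The members of each branch thus spread over a wide range around nearly the same median.

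The response to LPS/GalN within a genotype was the treated minus the untreated liver. In TMX-null liver the median response was −1.66 for the sterol genes and −1.74 for the fatty acid genes. At least 2-fold lower were 12 of the 17 sterol and 14 of the 16 fatty acid genes, beside 12.1% of all genes. None was 2-fold higher, beside 11.4%. The hepatocyte markers had a median response of −1.43, and 9 of the 14 were at least 2-fold lower. With the arrays scaled to the same spread, the sterol and fatty acid medians were −0.34 and −0.96. At least 2-fold lower were then 3 sterol and 7 fatty acid genes, beside 7.30% of all genes. Centred on hepatocyte markers, the medians were −0.15 and −0.23, with 1 and 3 genes 2-fold lower, beside 1.20% of all genes. The response of wild-type liver is the ratio on its array, given above, while the untreated TMX-null value is subtracted here. At the same treated value, a gene lower in untreated TMX-null liver therefore has a smaller fall, but low untreated values also went with large falls. Sqle, at −0.90 in untreated TMX-null liver, had a response of −0.54 in TMX-null liver and 0.24 in wild-type liver. Acss2, at −0.88 in untreated TMX-null liver, had a response of −2.80 in TMX-null liver. The sign turned with hepatocyte centring for Mvk, Mvd, Sqle, Hsd17b7, Dhcr7, Acly, Me1 and Acacb, and with equal spreads for Mvk, Mvd, Sqle and Dhcr7. Mvd and Dhcr7, at −1.24 and −1.01 in TMX-null liver, then stood at 0.26 and 0.50 with hepatocyte centring and at 0.38 and 0.35 with equal spreads.

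**Figure D3:**
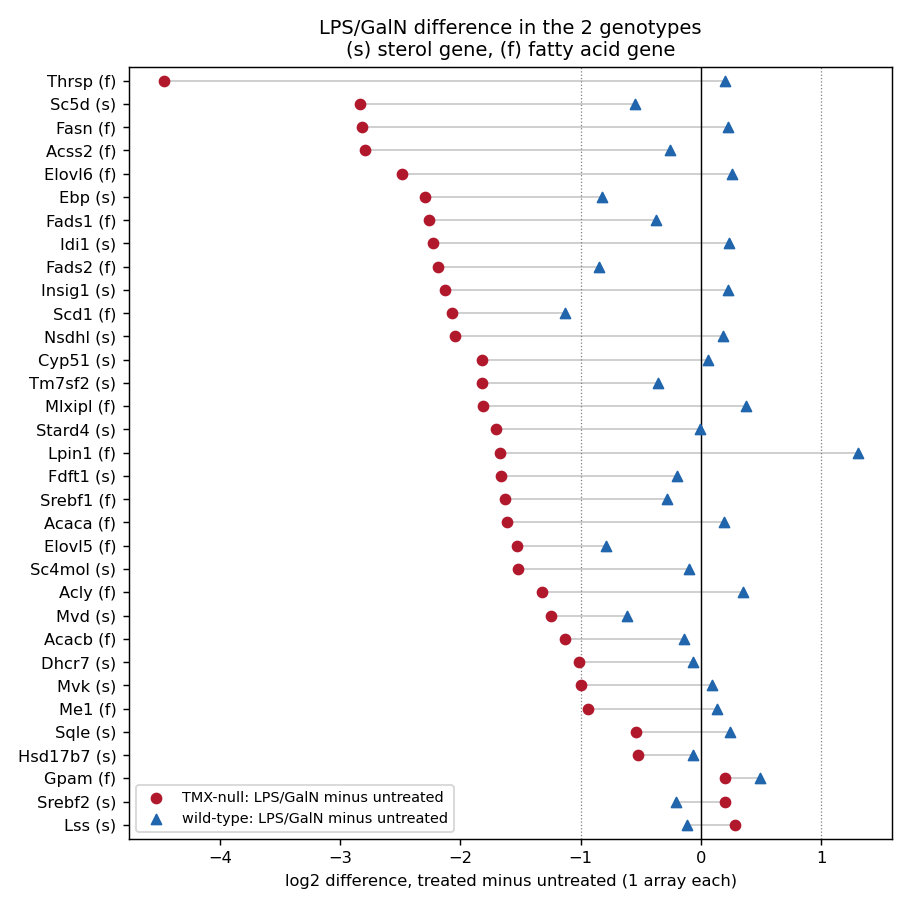
Treated minus untreated log2 difference (horizontal axis) of the 33 genes in TMX-null liver (circles) and wild-type liver (triangles), sorted by the value in TMX-null liver, with dotted lines at 2-fold. The circle of Thrsp is farthest left at −4.47, and Lpin1 has its circle at −1.67 and its triangle at 1.30.

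The difference between these responses, TMX-null minus wild-type, had a median of −1.46 for the sterol genes and −1.74 for the fatty acid genes. At least 2-fold lower were 11 of 17 and 12 of 16 genes, beside 11.6% of all genes, and none was 2-fold higher, beside 9.82%. The hepatocyte marker median was −0.35. With the arrays scaled to the same spread, the sterol median was −0.030 and the fatty acid median −0.72. At least 2-fold lower were then 3 of 17 sterol and 5 of 16 fatty acid genes, beside 12.4% of all genes. The sterol gene Mvd was then 2-fold higher. Centred on hepatocyte markers, 4 sterol and 5 fatty acid genes were at least 2-fold lower, beside 1.76% of all genes. By that centring 7 sterol and 5 fatty acid genes stood above 0, of which Lss and Srebf2 were at least 2-fold higher.

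**Figure D4:**
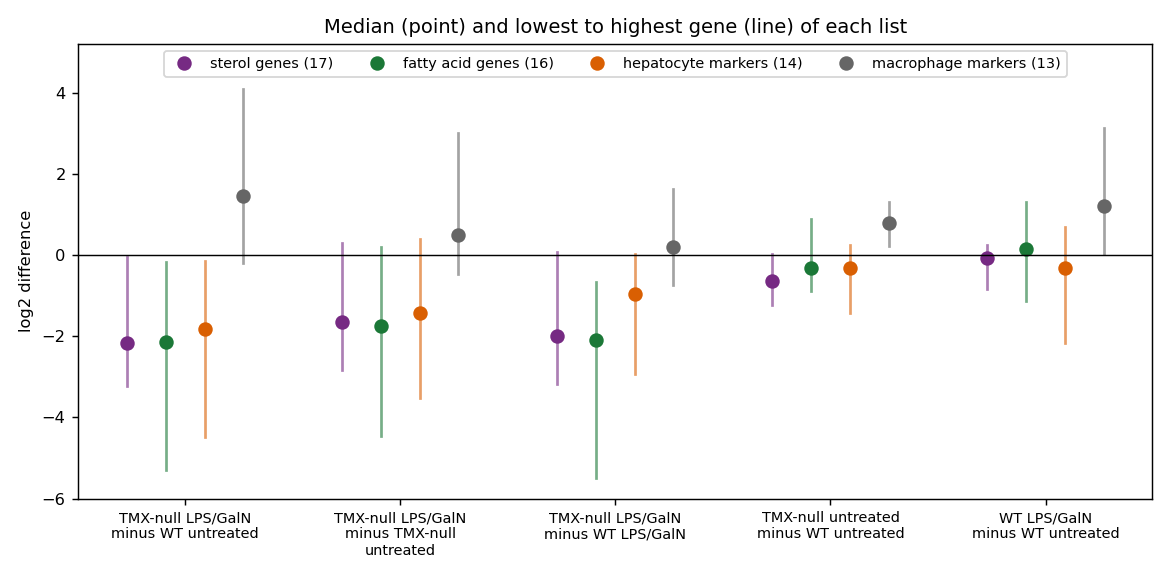
Median (point) and lowest to highest gene (line) of the log2 difference for sterol genes, fatty acid genes, hepatocyte markers and macrophage markers in 5 comparisons. In treated TMX-null minus treated wild-type liver the sterol and fatty acid medians are −2.00 and −2.10, against −0.95 for the hepatocyte markers.

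The median of the sterol genes minus that of the fatty acid genes was −0.03 in treated TMX-null liver, −0.31 in untreated TMX-null liver and −0.23 in treated wild-type liver. It was 0.08 for the response of TMX-null liver, 0.10 between the treated genotypes and 0.28 for the difference of the responses. The distance in the responses was wider with equal spreads, where the medians given above were −0.34 and −0.96 in TMX-null liver. No error can be put on these differences with 1 array a group. At least 2-fold lower against untreated wild-type, untreated TMX-null and treated wild-type liver alike were 24 of the 33 genes, 12 in each branch. These 3 comparisons share the treated TMX-null array, so they are not independent of each other, and 780 of the 10179 genes and 5 of the 14 hepatocyte markers met the same rule.

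Genes next to the sterol pathway were less uniformly low. Of 28 listed, 21 had values on all 3 arrays, with a median of −0.24 in treated TMX-null liver, −0.03 in untreated TMX-null liver and 0.00 in treated wild-type liver. In treated TMX-null liver 7 were at least 2-fold lower and 2 higher, beside the 13.2% and 13.6% of all genes given above. The sterol exporters Abcg8 and Abcg5 stood at −2.25 and −1.29 in treated TMX-null liver, −0.03 and 0.04 in untreated TMX-null liver, and 0.00 and 0.15 in treated wild-type liver. Lcat, which esterifies plasma cholesterol, stood at −2.22 in treated TMX-null liver, and Soat2, the hepatocyte enzyme that esterifies cholesterol, at −1.94. Sec14l2, Tmem97 and Scap stood at −1.51, −1.34 and −1.08 there.

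The 2 high genes were Soat1 and Abcg1. Soat1, the esterifying enzyme of macrophages, stood at 1.38 in treated TMX-null liver, 1.09 in untreated TMX-null liver and 1.85 in treated wild-type liver. Abcg1, a cholesterol exporter of macrophages, stood at 1.69, 0.43 and 0.74 on the same arrays in that order. Lbr, the second sterol reductase beside Tm7sf2, stood at 0.71 in treated TMX-null liver, −0.42 in untreated TMX-null liver and 0.85 in treated wild-type liver, so its response in TMX-null liver was 1.12. The macrophage marker medians given above were high on the same 3 arrays.

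Around fatty acid synthesis, some genes of lipid uptake and storage stood high in treated TMX-null liver. Of 43 listed, 31 had values, with a median of −0.21 in treated TMX-null liver, −0.08 in untreated TMX-null liver and −0.10 in treated wild-type liver. In treated TMX-null liver 11 of the 31 were at least 2-fold lower and 7 higher, beside the same shares of all genes. Plin2, a coat protein of lipid droplets, stood at 3.07 in treated TMX-null liver, 0.37 in untreated TMX-null liver and 0.00 in treated wild-type liver. Lpl, lipoprotein lipase, stood at 3.55, 0.49 and 1.56 on the same arrays in that order. Cd36, a fatty acid transporter, stood at 1.92 in treated TMX-null liver, 0.17 in untreated TMX-null liver and −0.19 in treated wild-type liver.

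The other high genes were Scd2 at 1.67, Acsl4 at 1.47, Cidec, a droplet protein, at 1.46 and Pgd, an NADPH-yielding dehydrogenase, at 1.29 in treated TMX-null liver. On this array Scd2 and Scd1, desaturases of the same family, thus lay on opposite sides of 0. Pparg, a regulator of fat storage, stood at 0.83 in treated TMX-null liver, 0.59 in untreated TMX-null liver and −0.38 in treated wild-type liver, and was 2-fold higher between the treated genotypes (1.20). Of the adipocyte markers only Plin1 was measured, at −0.20, 0.17 and −0.43 on these arrays in that order.

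The low genes included those that bring sugar carbon into the pathway. Slc2a2, the hepatocyte glucose transporter, stood at −2.08 in treated TMX-null liver, 0.05 in untreated TMX-null liver and −0.22 in treated wild-type liver. Khk, ketohexokinase, stood at −2.07, −0.06 and −0.08 on the same arrays in that order. Both are also expressed mainly in hepatocytes. Pklr, the liver pyruvate kinase, stood at −1.19 in treated TMX-null liver, and Slc25a1, the mitochondrial citrate carrier, at −1.54.

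Elovl2, Aacs and Ppargc1b stood at −1.97, −1.95 and −1.79 in treated TMX-null liver. Fabp1, Acsl1, Dgat2 and Agpat2, which bind, activate or esterify fatty acids, lay between −1.52 and −1.10 there. Txnip, a target of ChREBP, stood at −0.38 in treated TMX-null liver, 1.03 in untreated TMX-null liver and 0.05 in treated wild-type liver, so its response in TMX-null liver was −1.41. It was the only gene of its list at least 2-fold higher in untreated TMX-null liver.

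**Figure D5:**
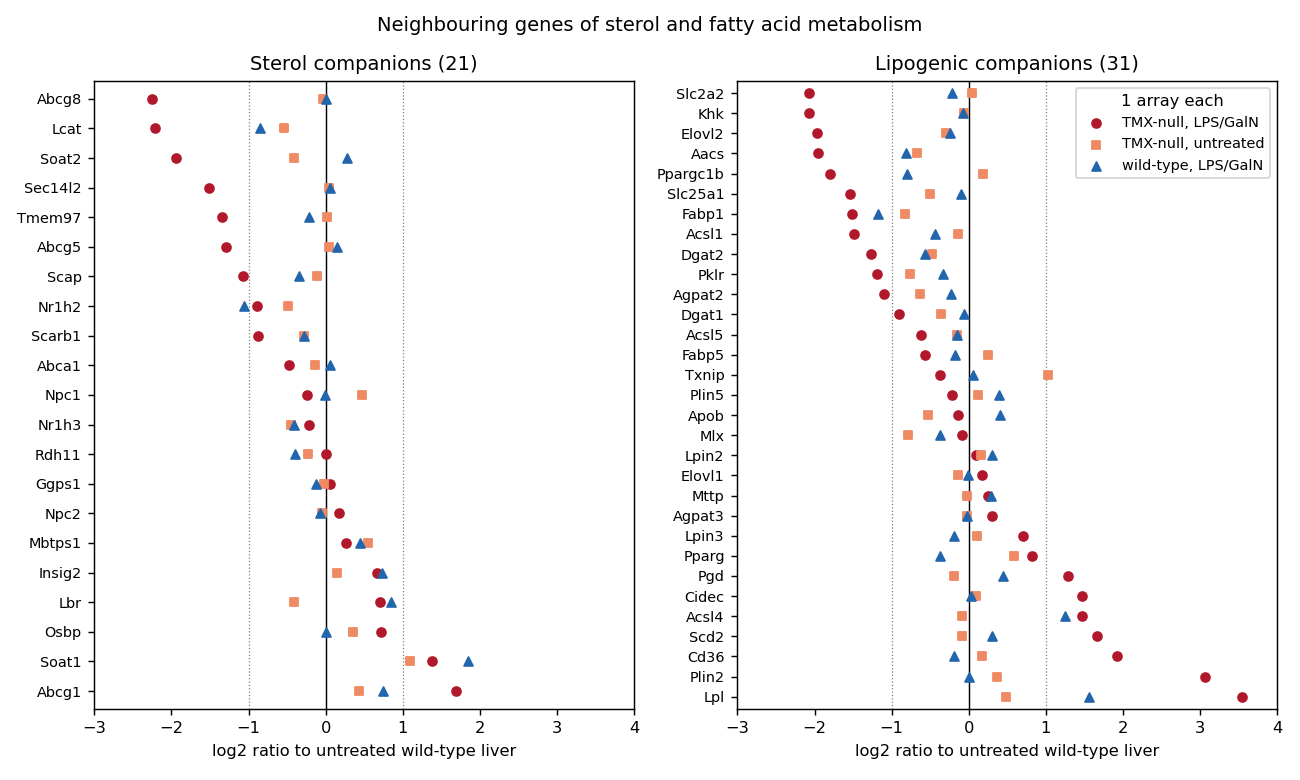
Log2 ratio to untreated wild-type liver (horizontal axes) of 21 genes next to the sterol pathway and 31 next to fatty acid synthesis, sorted by treated TMX-null liver, 1 symbol per array. Abcg8 is the lowest on the left at −2.25, and Lpl and Plin2 are the highest on the right at 3.55 and 3.07.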

How the data were processed

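The values analysed are log ratios as deposited by the authors for 3 arrays, taken to be on the log2 scale. How the images, background and normalization were handled, and why cells are blank, is not given in the sources used here. Per the labels' protocols, RNA was amplified as amino allyl RNA and coupled to dyes. The table gives no signal intensities, so how bright a gene was is unknown, and precision is limited by the number of arrays.

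Of 23473 rows, the platform annotation named 16631 and left 6842 unnamed. Symbols were updated through RefSeq tables of GRCm38.p6 (12622 already current, 3947 renamed, 62 kept). Probes of a gene were averaged, although every measured gene described here had 1 row, and each array was centred on its median over 10179 genes. Differences of arrays were taken per gene. The 38 genes, the neighbouring genes (named if past 2-fold in untreated or treated TMX-null liver, in the response of TMX-null liver or between the treated genotypes), the markers and the comparisons were chosen with earlier results of these data known. Settings tried were other centrings, equal spreads, a natural logarithm, all genes on the arrays used, the first probe, list means, and thresholds of 1.5-fold and 3-fold. Calculations used Python 3.11.15, numpy 2.4.6 and pandas 2.3.3, and were checked on simulated data.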

Additional observations from a re-analysis of the deposited data

Results flagged for a closer look

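Lpin1 is singled out because its response to LPS/GalN had opposite signs in the 2 genotypes and was at least 2-fold in both. Treated minus untreated was −1.67 in TMX-null liver and 1.30 in wild-type liver, with 1 array behind each value, and the difference was not tested. With hepatocyte centring the response of Lpin1 in TMX-null liver was still below 0 but short of 2-fold. Its response in wild-type liver was at least 2-fold higher by that centring too. Of the 33 genes, 16 had responses of opposite sign, beside 36.5% of all genes, and 14 were negative in TMX-null and positive in wild-type liver, beside 18.3%, and Lpin1 was the only one past 2-fold in both.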

How the results depend on the processing

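Each group has 1 array, so no replicate could be left out. No paired analysis was possible because no group has a second array. The sterol and fatty acid medians stayed below 0 in both TMX-null livers, in the response of TMX-null liver, between the treated genotypes and in the difference of responses under every setting run, but not at the same size. In untreated TMX-null liver with hepatocyte centring, the fatty acid median was −0.0059, near 0, and the sterol median −0.31. In treated wild-type liver the medians turned, to 0.25 for the sterol genes with hepatocyte centring and to −0.018 for the fatty acid genes as a mean. Centring on hepatocyte markers gave sterol medians of −0.33 in treated TMX-null liver, −0.15 against untreated TMX-null liver, −0.48 against treated wild-type liver and −0.27 for the difference of responses, with 2, 1, 5 and 4 genes 2-fold lower. Fatty acid medians were then −0.31, −0.23, −0.58 and −0.55 in the same order, with 3, 3, 4 and 5 genes. The shares of all genes 2-fold lower were then 1.03%, 1.20%, 0.992% and 1.76%. At least 2-fold higher were then 3, 2, 2 and 2 sterol genes and 2, 1, 0 and 0 fatty acid genes. Scaling arrays to the same spread gave sterol medians of −1.35, −0.34, −1.22 and −0.030, with 3 genes 2-fold lower against untreated TMX-null liver, 3 lower and 1 higher for the difference of responses, and fatty acid medians of −1.33, −0.96, −1.29 and −0.72, with 7, 9 and 5 genes 2-fold lower in the last 3. Of all genes, 7.30%, 5.39% and 12.4% were 2-fold lower in the last 3 comparisons under that scaling. A natural logarithm gave sterol medians of −3.12, −2.39 and −2.88 in the first 3 comparisons, and fatty acid medians of −3.08, −2.51, −3.02 and −2.51 in all 4. In untreated TMX-null liver, the sterol genes at least 2-fold lower were 8 under equal spreads and 6 under a natural logarithm, against 2 as reported and 0 with hepatocyte centring, and the fatty acid genes were 5 and 3, against 0 and 0, with 1 higher in each setting but the reported one. The shares of all genes 2-fold lower there were 4.25% under equal spreads, 3.44% under a natural logarithm and 0.216% with hepatocyte centring.

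Values follow for genes that were at least 2-fold from 0 as reported and changed sign; smaller values that did so are counted after them. Centred on hepatocyte markers, treated TMX-null liver stood at 0.041 for Mvk, 0.39 for Sqle, 0.039 for Tm7sf2, 0.29 for Acacb, 0.35 for Elovl5 and 0.021 for Mlxipl. Against untreated TMX-null liver it then stood at 0.26 for Mvd, 0.50 for Dhcr7, 0.18 for Acly and 0.37 for Acacb. Against treated wild-type liver the values were 0.074 for Tm7sf2, 0.47 for Me1, 0.12 for Acacb and 0.37 for Scd1, and the difference of responses was 0.10 for Mvk and 0.12 for Me1. Under equal spreads, the response of TMX-null liver was 0.38 for Mvd and 0.35 for Dhcr7, the treated genotypes differed by 0.089 for Scd1, and the difference of responses was 0.15 for Fdft1, 0.25 for Fads2 and 0.11 for Srebf1. Over values of any size, hepatocyte centring turned 12 of 33 genes in treated TMX-null liver, 8 against untreated TMX-null liver, 8 against treated wild-type liver and 10 in the difference of responses, and equal spreads turned 0, 4, 3 and 8. The cause was not tested.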
